A study of Mus musculus with 11 samples.

Results

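Mir155, Mir146, Mir221 and Mir222 are microRNA genes whose signal rose in mouse macrophages treated with lipopolysaccharide (LPS), the bacterial outer membrane component sensed by Toll-like receptor 4. The 4 genes were chosen from their measured rise with LPS on these same arrays, so that rise is described here without a test. Each was read as the probe set annotated to that symbol alone, and 1 such probe set was found per gene. They were 4 of 291 microRNA genes and of 18755 genes measured. The probes do not separate the long primary transcript from the short mature microRNA, so every level below is the signal of the microRNA locus and not the amount of mature microRNA.

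Bone marrow of C57Bl/6 wild type mice was the source of the macrophages, which were cultured for 1 week with 5 ng/ml macrophage colony-stimulating factor (mCSF) and used 24 hours after being plated again. No genetic change was named for any group, and the age and sex of the mice were not given. Untreated cells (4 arrays) were compared with cells given 100 ng/ml LPS for 1 hour (3 arrays) and cells given the same LPS together with 10 µM prostaglandin E (PGE) for 1 hour (4 arrays). Which prostaglandin E was used was not stated, and no group received PGE alone. RNA (250 ng per sample) was measured on Affymetrix whole-transcript gene arrays, and the authors left out 1 further LPS array of the 12 made for quality reasons. Nothing in the labels states that the replicates came from different mice or different cultures, so p-values measure only the spread between these samples, which may be technical. Precision is limited by the small number of arrays.

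The deposited log2 levels ran from 1.20 to 13.81, with the lower quartile over genes at 3.80 to 4.05 and the median at 5.79 to 6.01 on the 11 arrays. On the LPS plus PGE arrays the lower quartile was 4.00 to 4.05 and the median 5.79 to 5.82. On the untreated and LPS arrays they were 3.80 to 3.90 and 5.89 to 6.01, without overlap. That difference in array levels cannot be told apart from PGE in this design. The 10 measured macrophage markers had mean levels of 11.7 to 11.9 on every array, above those of the neutrophil, dendritic cell, B cell, T and NK cell, mast cell and stromal lists, whose mean levels lay between 3.09 and 5.46. The highest single gene of those lists, in the neutrophil list, reached 10.1 to 10.2 in each group. In these bulk samples, fewer cells of a type and less RNA per cell cannot be told apart.

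A microRNA is cut from its primary transcript in the nucleus by Drosha with Dgcr8, trimmed in the cytoplasm by Dicer, and loaded into an Argonaute protein, where its seed (bases 2 to 8) pairs with messenger RNAs and lowers their stability and translation. In macrophages miR-155 and miR-146a are known as products of Toll-like receptor and NF-kB signalling. miR-155 lowers inhibitors of inflammatory signalling such as Socs1 and Inpp5d, whereas miR-146a lowers the adaptors Traf6 and Irak1 and so feeds back on the same receptors. miR-221 and miR-222 come from 1 cluster and are best known for lowering the cell cycle inhibitor Cdkn1b.

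The main mature sequences are shown because they sort the 4 genes into 3 seed groups that the choice of genes did not use, and because miR-146b, which is not one of the 4, carries the seed of miR-146a. Sequences and positions are from RefSeq on GRCm38.p6, written 5′ to 3′ with the seed in capitals.
miR-155-5p: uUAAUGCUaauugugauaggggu
miR-146a-5p: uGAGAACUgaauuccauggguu
miR-146b-5p: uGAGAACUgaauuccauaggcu
miR-221-3p: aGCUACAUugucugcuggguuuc
miR-222-3p: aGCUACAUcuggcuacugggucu

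The mature miR-155-5p lies at chr16:84714143-84714165 on the plus strand. Among 1738 mature mouse sequences in the RefSeq table, its seed UAAUGCU was found in 1, miR-155-5p itself. The gene called Mir146 on the array encodes miR-146a-5p, at chr11:43374435-43374456 on the minus strand. Its seed GAGAACU was found in 2 mature sequences, miR-146a-5p and miR-146b-5p, the latter at chr19:46342790-46342811 on the plus strand. These were identical at 20 of 22 bases and differed by G18A and U21C, counted from the 5′ end of miR-146a-5p. miR-221-3p (chrX:19146307-19146329) and miR-222-3p (chrX:19146901-19146923) lie on the minus strand, with the hairpins 504 bases apart. They were identical at 11 of 23 bases, and their first difference was U9C, just past the shared seed. That seed, GCUACAU, was found in 3 mature sequences, the other being from Mir1928, not analysed here.

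The hairpins of Mir155 and Mir146 are each 65 bases long and are shown because the whole-transcript probes read the locus rather than an arm. Under PGE the signal of Mir146 parted from that of Mir155, Mir221 and Mir222. Capitals mark both mature arms, and the hairpins lie at chr16:84714140-84714204 (plus strand) and chr11:43374397-43374461 (minus strand).
Mir155 hairpin: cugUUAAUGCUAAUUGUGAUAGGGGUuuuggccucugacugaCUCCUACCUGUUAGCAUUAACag
Mir146 hairpin: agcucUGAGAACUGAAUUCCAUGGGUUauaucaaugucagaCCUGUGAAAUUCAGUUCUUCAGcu

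Within 1 hour of LPS, the signal of all 4 loci stood above untreated cells, by 5.72-fold at Mir146 to 22.9-fold at Mir155, and no untreated array reached any LPS array. Mir155 had log2 levels of 4.12, 4.84, 4.75 and 3.46 on the untreated arrays and 8.77, 8.86 and 8.80 on the LPS arrays. The untreated arrays were spread (SD 0.64, n = 4) and the LPS arrays were close together (SD 0.046, n = 3). The difference was 4.52 ± 0.25 (SE) on the log2 scale.

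Mir221 had log2 levels of 6.07, 6.02, 6.12 and 5.99 in untreated cells and 9.39, 9.70 and 9.86 after LPS, a difference of 3.60 ± 0.10 (SE) or 12.1-fold. Mir222, its cluster partner, had log2 levels of 5.93, 5.64, 5.27 and 5.60 in untreated cells and 8.75, 9.08 and 9.44 after LPS, a difference of 3.48 ± 0.16 (SE) or 11.2-fold. At both genes LPS replicate 1 was the lowest LPS array and replicate 3 the highest.

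Mir146 had log2 levels of 2.80, 2.74, 2.90 and 2.78 in untreated cells and 5.13, 5.37 and 5.45 after LPS, a difference of 2.52 ± 0.09 (SE). In untreated cells only 4.93% to 6.65% of genes had a lower value on the same array, and after LPS 45.2% to 46.9% did. Background was not measured at this probe set and the gene was chosen for this rise, so the size of the 5.72-fold is uncertain in either direction.

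**Figure D1:**
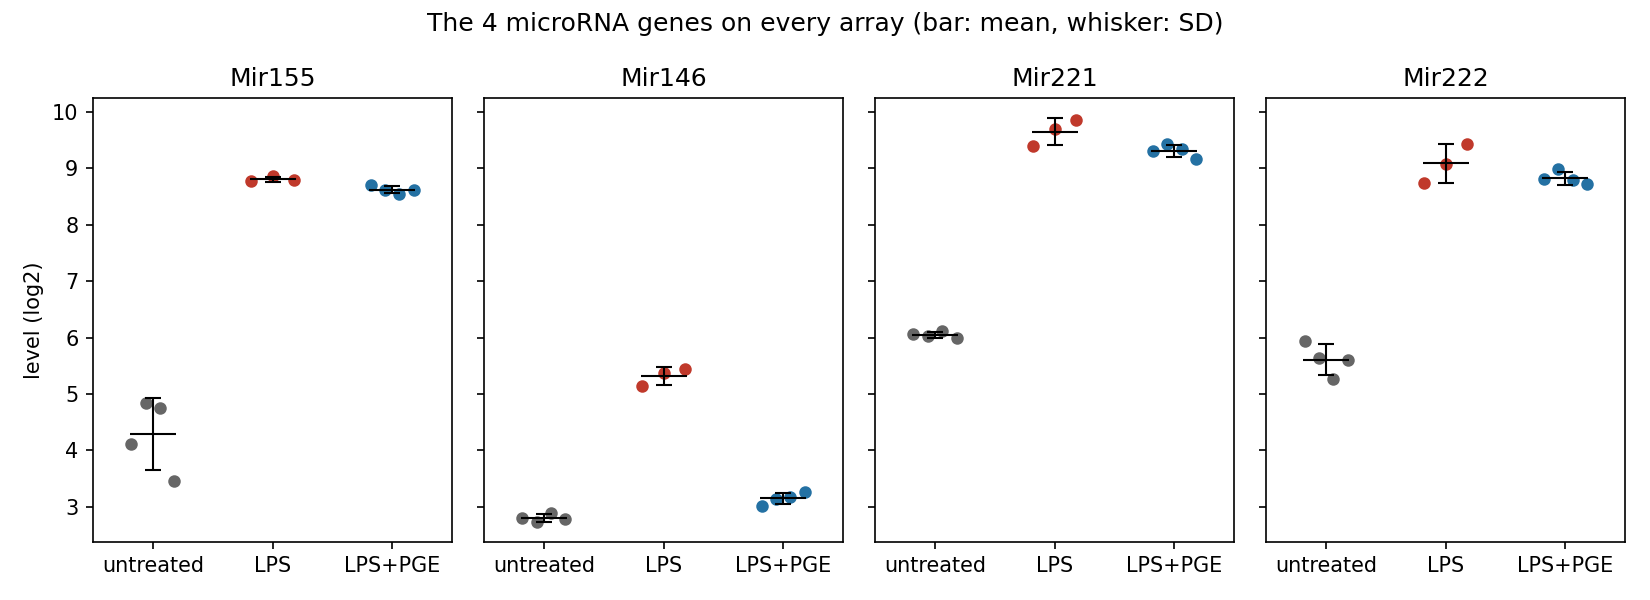
Log2 level of Mir155, Mir146, Mir221 and Mir222 (y axis) on each of 4 untreated, 3 LPS and 4 LPS plus PGE arrays (points), with the group mean (bar) and SD (whisker). Mir155, Mir221 and Mir222 stay high with PGE, whereas the 4 LPS plus PGE arrays of Mir146, at 3.01 to 3.26, lie below every LPS array.

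The question of the PGE arm is what prostaglandin E, which raises cyclic AMP in macrophages, does to the LPS response. With PGE added, Mir146 lay near its untreated level, while Mir155, Mir221 and Mir222 lay near their LPS level. Mir146 had log2 levels of 3.01, 3.14, 3.18 and 3.26 with LPS plus PGE. Every one of these lay below the lowest LPS array (5.13) and above the highest untreated array (2.90).

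The level of Mir146 with LPS plus PGE was lower than with LPS alone by 4.50-fold, a log2 change of -2.17 ± 0.09 (SE; 95% interval -2.36 to -1.99; limma adjusted p = 1.84e-08). This comparison shares its 3 LPS arrays with the rise for which the gene was chosen, so a high reading on them would enlarge both. It was the lowest change among all 18755 genes, and it was also the lowest in 19 of the 20 alternative analyses that held the gene. In the other, over all 35309 probe sets, it ranked 8th from the bottom. Leaving out an untreated array, changing the variance model or fitting the compared groups alone leaves every gene's change as it was. The rank of Mir146 could not differ in those alternatives. The size of the fold is uncertain. Only 6.98% to 10.9% of genes had lower values than Mir146 on the LPS plus PGE arrays, and background was not measured. The log2 change was -2.32 with cyclic loess and -2.01 with equal medians.

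Mir155 had log2 levels of 8.71, 8.62, 8.54 and 8.62 with LPS plus PGE. All lay below the LPS arrays, by a little, and far above the untreated ones, and the change from LPS was -0.19 ± 0.25 (SE), with a 95% interval of -0.74 to 0.37 (limma adjusted p = 0.612). The SE is pooled over the groups and holds the spread of the untreated arrays. Fitted on the compared groups alone, the same change had a limma adjusted p of 0.0787, also short of the threshold. A fall larger than 0.74 on the log2 scale lies outside the interval, and a small fall or rise does not.

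Mir221 had log2 levels of 9.31, 9.43, 9.34 and 9.17 with LPS plus PGE, which overlapped the LPS arrays. The change was -0.34 ± 0.10 (SE; 95% interval -0.56 to -0.12; limma adjusted p = 0.0324), and it passed in 11 of 22 alternative analyses. Without LPS replicate 3 it was -0.23 (limma adjusted p = 0.128), and with arrays brought to equal medians it was -0.18 (limma adjusted p = 0.211). Mir222 had log2 levels of 8.81, 8.99, 8.79 and 8.72, within the range of the LPS arrays except for the last. Its change was -0.26 ± 0.16 (SE; 95% interval -0.62 to 0.10; limma adjusted p = 0.259).

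So 2 of the 4 genes fell with PGE and 0 rose, against 12.9% of all genes that fell and 11.9% that rose at an adjusted p under 0.05. Over all genes that split was 2225 rises and 2416 falls, and with arrays brought to equal medians it was 5850 and 718. The 4 genes were chosen for their rise on the same LPS arrays, and high readings there would favour falls. The shares over all genes are therefore not a like comparison. Of the 2 genes that fell, Mir146 kept its call in all 20 alternatives that held it, at -2.32 to -2.01. By an exact permutation of the 7 LPS and LPS plus PGE arrays (35 arrangements, two-sided), the unadjusted p was 0.0286 for Mir146, the smallest possible, 0.0571 for Mir155 and for Mir221, and 0.229 for Mir222. The calls of Mir146 and Mir221 thus rest on limma, which pools the spread over groups and genes. Mir146 minus the mean of the other 3 genes differed by -1.91 between the treatments and Mir221 minus Mir222 by -0.08, given as values with no test, since the differences were picked after the levels were seen.

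Against untreated cells, LPS plus PGE gave log2 differences of 4.33 ± 0.23 (SE) for Mir155, 3.26 ± 0.09 for Mir221 and 3.22 ± 0.15 for Mir222. These were 20.1-fold, 9.60-fold and 9.31-fold. For Mir146 the difference was 0.35 ± 0.08 (SE), or 1.27-fold. Both groups lay at the low end of the array, where background was not measured, and the difference was 0.21 with cyclic loess and 0.47 with equal medians, so its size is uncertain. Over the 6252 genes in the lowest tertile of mean level, the median of the same comparison was 0.14, and 15.9% rose and 0.832% fell. The differences at Mir155, Mir221, Mir222 and Mir146 share the untreated arrays with the LPS comparison and carry no test.

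Among the 291 microRNA genes, Mir155, Mir221, Mir222 and Mir146 held places 1, 2, 3 and 4 for the difference between LPS and untreated cells. Over all 18755 genes they held places 19, 37, 43 and 83. The next microRNA gene, just outside the 4, was Mir191 at 1.18 ± 0.18 (SE), set beside 2.52 for Mir146. Of the other 287 microRNA genes, 14 rose with LPS and 25 fell, which is 4.88% and 8.71%, against 6.55% and 6.69% of all genes. The 25 falls became 15 without untreated replicate 3 and 16 without LPS replicate 3.

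The other rises with LPS were small beside the 4 genes. Mir674 rose by 1.15 ± 0.12 (SE; limma adjusted p = 4.28e-05), Mir99b by 1.04 ± 0.09 (4.48e-06), Mirlet7e by 0.93 ± 0.11 (8.25e-05) and Mir680-2 by 0.82 ± 0.18 (0.00985). Mir191 passed as well (limma adjusted p = 6.78e-04). The lowest changes with LPS were at Mir340 (-1.83 ± 0.17), Mir181b-1 (-1.59 ± 0.16) and Mir339 (-1.44 ± 0.24), which all passed (limma adjusted p of 1.26e-05, 1.91e-05 and 0.00138).

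**Figure D2:**
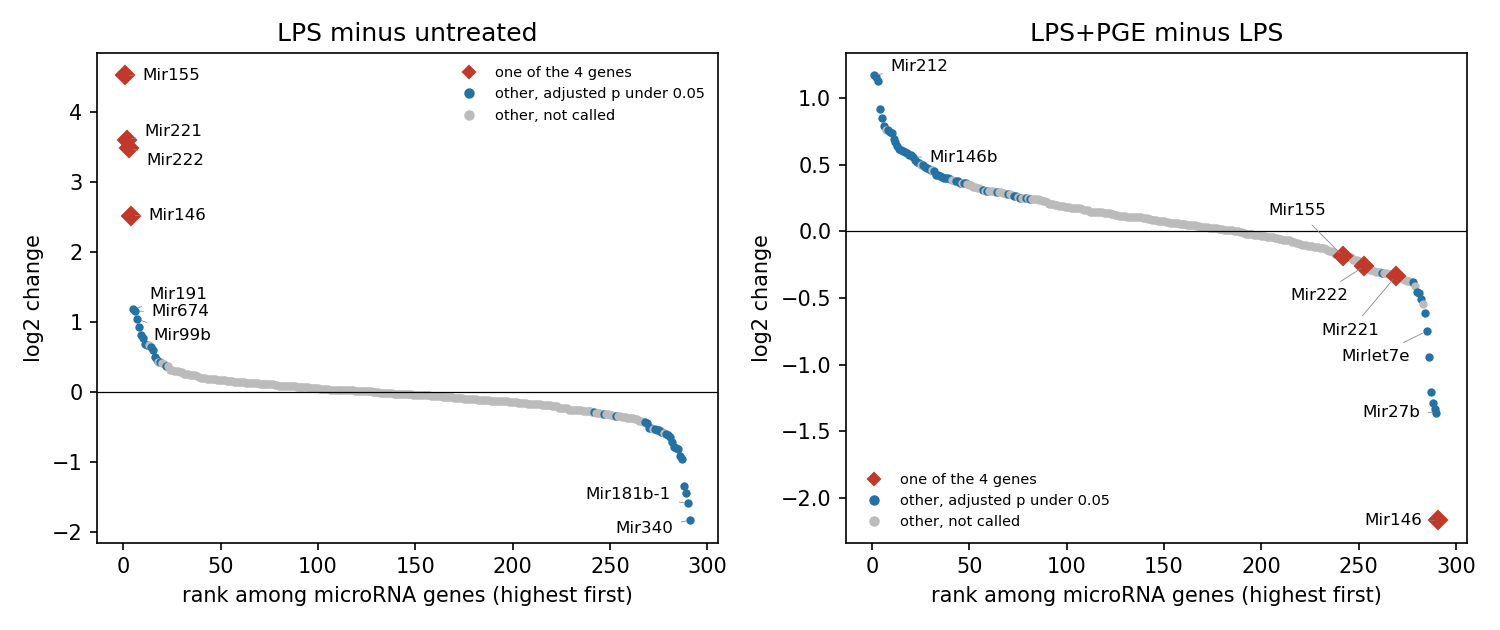
Log2 change (y axis) of 291 microRNA genes ranked from highest to lowest (x axis), for LPS minus untreated (left) and LPS plus PGE minus LPS (right); diamonds are the 4 genes and blue points passed an adjusted p under 0.05. The 4 genes lead on the left, and Mir146 is the lowest point on the right at -2.17.

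With PGE added to LPS, 51 of the other 287 microRNA genes rose (17.8%) and 12 fell (4.18%), with a median change of 0.09 against -0.0045 over all genes. The 51 rises became 31 without LPS replicate 3 or without LPS plus PGE replicate 1. They became 21 under quantile scaling and 20 under cyclic loess, where the median of these genes turned to -0.0089 and -0.03. Genes of low level shared this shift: of the 6252 genes in the lowest tertile of mean level, 17.5% rose and 0.576% fell, with a median of 0.14. In that tertile were 197 of the other microRNA genes, of which 17.3% rose and 1.52% fell. Mir146 lies in the same tertile by its mean and moved against it.

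The microRNA genes that rose most with PGE were Mir212 (1.17 ± 0.09, limma adjusted p = 7.47e-06) and Mir132 (1.16 ± 0.16, 7.44e-04), 203 bases apart and known as targets of the cyclic AMP responsive factor CREB. Mir680-1 was next (1.13 ± 0.32, limma adjusted p = 0.0251), a call lost in 6 alternatives. The lowest after Mir146 were Mir27b (-1.36 ± 0.10, limma adjusted p = 3.89e-06), Mir24-1 (-1.33 ± 0.13, 6.08e-05) and Mir23b (-1.29 ± 0.15, 1.86e-04), which had changed little with LPS alone (-0.07, -0.06 and -0.17, each short of the threshold). With LPS plus PGE these 3 lay below untreated cells, by -1.43, -1.39 and -1.46 (Mir27b, Mir24-1 and Mir23b; limma adjusted p of 1.71e-07, 4.14e-06 and 7.11e-06), whereas Mir146 lay above them. A list of 39 microRNAs known from macrophages, without the 4 genes, overlaps the genes named here. It holds Mir212, Mir132, Mir27b, Mir24-1 and Mir23b, and Mir146b, Mir99b, Mirlet7e and Mir125a below, so its counts are not separate from theirs. Of the 39, 32 were measured. With LPS 4 rose and 3 fell (12.5% and 9.38%, against 6.55% and 6.69% of all genes). When PGE was added 10 rose and 5 fell (31.2% and 15.6%, against 11.9% and 12.9%).

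Mir146b, the gene with the same seed as Mir146, had another pattern. Its log2 levels were 3.76, 4.01, 4.05 and 3.83 in untreated cells, 4.07, 3.92 and 4.12 with LPS, and 5.11, 4.41, 4.19 and 4.67 with LPS plus PGE. All 4 of the last lay above the LPS arrays. The change with LPS was 0.12 ± 0.17 (SE; limma adjusted p = 0.711) and that with PGE was 0.56 ± 0.17 (limma adjusted p = 0.0351), which passed in 9 of 20 alternatives. The change with PGE was 0.37 under quantile scaling (limma adjusted p = 0.227), 0.43 under cyclic loess (0.131) and 0.72 with equal medians (0.00796). Mir146b lies in the lowest tertile of mean level, where 17.5% of genes rose and 0.576% fell with PGE. Between LPS and LPS plus PGE the difference Mir146 minus Mir146b moved by -2.73, a value picked after the levels were seen and not tested.

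A second group of neighbours, Mir99b, Mirlet7e and Mir125a on chromosome 17, was called higher with LPS at each gene. Mirlet7e had log2 levels of 4.87, 5.17, 5.25 and 5.16 in untreated cells, 6.01, 5.94 and 6.16 with LPS, and 5.47, 5.08, 5.30 and 5.30 with LPS plus PGE. The last lay below every LPS array and overlapped the untreated ones. Its change with PGE was -0.75 ± 0.11 (SE; limma adjusted p = 8.80e-04), the same call in all 21 alternatives.

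Mir125a, 367 bases from Mirlet7e, had log2 levels of 4.71, 4.59, 4.43 and 4.76 in untreated cells, 5.33, 5.28 and 5.29 with LPS, and 5.21, 5.23, 5.39 and 5.39 with LPS plus PGE. Both treated groups lay above every untreated array and overlapped each other. It rose by 0.68 ± 0.08 (SE; limma adjusted p = 1.45e-04) with LPS and changed by 0.01 ± 0.08 with PGE (95% interval -0.18 to 0.19; limma adjusted p = 0.964). The difference Mirlet7e minus Mir125a moved by -0.75, which was likewise not tested. Mir99b changed by -0.31 ± 0.09 with PGE (limma adjusted p = 0.0247), a call lost in 5 of 21 alternatives, among them the one without LPS replicate 3 (limma adjusted p = 0.0969).

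**Figure D3:**
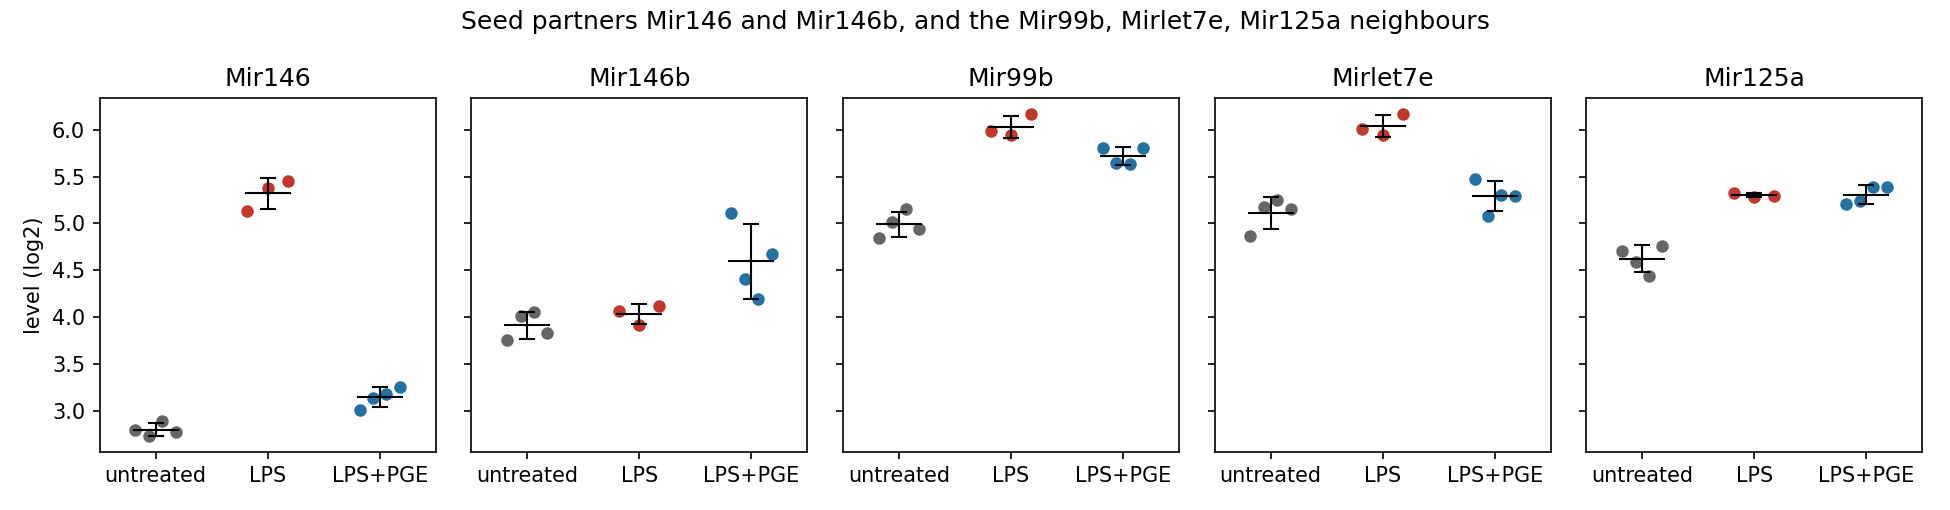
Log2 level (y axis) of Mir146, of Mir146b with the same seed, and of the neighbours Mir99b, Mirlet7e and Mir125a on each untreated, LPS and LPS plus PGE array (points), with group mean (bar) and SD (whisker). Mir146 and Mirlet7e drop with PGE, and Mir99b, at 5.63 to 5.81, lies a little below its lowest LPS array (5.945). Mir146b, at 4.19 to 5.11, and Mir125a, at 5.21 to 5.39, do not drop.

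Across the 11 arrays, which fall into 3 groups, the levels of Mir155, Mir221 and Mir222 ran together (Pearson r of 0.974 to 0.994 between them), whereas Mir146 had r of 0.601 to 0.646 with each. These describe the group pattern and carry no p. Among 619 genes whose group means spanned at least 1 on the log2 scale, those most like Mir155 were Acod1, which makes itaconate (r = 0.995), Nfkbia, the inhibitor of NF-kB (0.989), and the cytokine gene Tnf (0.989). Most like Mir221 were Tnf (0.997), Cd274, which encodes PD-L1 (0.996), and Ier5 (0.994). For Mir222 they were Mir221 (0.994), the interferon gene Ifnb1 (0.994) and Socs3, an inhibitor of cytokine signalling (0.991).

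Mir146 was most like Fam133b (r = 0.969), Ch25h, the enzyme that makes 25-hydroxycholesterol (0.961), and Etv3, an ETS family repressor (0.960). Ch25h rose by 1.70 ± 0.13 (SE) with LPS and changed by -1.42 ± 0.13 with PGE (limma adjusted p = 4.02e-05). Fam133b changed by 1.31 and -0.90, and Etv3 by 1.19 and -0.76. Genes like Mir146 were chosen for this pattern, so these values are a description.

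Transcription factors and signals known to act on these loci were mostly higher after LPS. Of 16 listed, 14 were measured, and 12 rose and 0 fell with LPS, with a median change of 1.36 (85.7% rose, against 6.55% of all genes). When PGE was added, 8 rose and 0 fell, with a median of 0.35 (57.1% rose, against 11.9%). Relb, an NF-kB subunit, rose by 1.46 with LPS and changed by -0.02 ± 0.08 (SE) with PGE (limma adjusted p = 0.874), and Nfkb2 by 1.26 and 0.13 (0.281). Rel, another subunit, rose by 1.45 and then by 0.31 (limma adjusted p = 0.0133).

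Some AP-1 and ETS genes rose in both comparisons. Fosl2 rose by 1.13 with LPS and by 2.05 ± 0.07 (SE) with PGE (limma adjusted p = 2.42e-09), Fosb by 3.27 and 3.94, Junb by 2.05 and 0.60, and Ets2, known to act on Mir155, by 2.38 and 0.92 ± 0.07 (6.56e-06). Il10, whose product lowers Mir155 through Stat3 in published work, rose by 5.36 and 1.88. Of the other AP-1 genes listed, Jun changed by -0.11 and Jund by -0.17 with PGE and neither passed. Stat3 itself changed by -0.01 and 0.00 and passed in neither comparison.

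Of 35 listed genes that make and use microRNAs, 32 were measured. With LPS 5 rose and 3 fell (15.6% and 9.38%, against 6.55% and 6.69% of all genes), and with PGE 1 rose and 6 fell (3.12% and 18.8%, against 11.9% and 12.9%). Over the alternatives the rises with PGE ranged from 1 to 8 and the falls from 1 to 10, so their split depends on the scaling. The falls numbered 3 without LPS replicate 3 or without LPS plus PGE replicate 1; the rises with LPS ranged from 2 to 5 and the falls from 0 to 6. Zc3h12a, an RNase known to cut cytokine messenger RNAs and microRNA precursors, rose by 2.09 ± 0.06 (SE; limma adjusted p = 1.42e-10) with LPS and by 0.65 ± 0.06 with PGE (2.61e-05). Srsf3, a splicing factor that helps the processing of primary microRNAs, rose by 0.41 ± 0.06 with LPS (limma adjusted p = 3.64e-04).

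Drosha, the nuclear enzyme, changed by -0.31 ± 0.06 (SE) with PGE (limma adjusted p = 0.00381), a call lost under each of 3 other scalings (0.0978 to 0.142). With LPS Drosha changed by 0.20, and that result differed in 16 of 22 alternatives. Both comparisons share the LPS arrays. Dicer1 changed by -0.19 ± 0.06 with PGE (limma adjusted p = 0.0419), lost in 14 alternatives. Tut1, a uridylyl transferase, fell by 0.44 ± 0.07 (limma adjusted p = 0.00167). Ago2, the slicing Argonaute, changed by 0.03 with LPS and by -0.08 with PGE and passed in neither.

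Described targets of the 4 microRNAs held both rises and falls. They were read as messenger RNA after 1 hour, and their sequences were not searched for sites. Fos (miR-155) and Relb (miR-146a) are also among the listed transcription factors and signals above, so those counts are not separate. For miR-155, 11 of 12 listed targets were measured: 6 rose and 1 fell with LPS (54.5% and 9.09%, against 6.55% and 6.69% of all genes), and 4 rose and 2 fell with PGE (36.4% and 18.2%, against 11.9% and 12.9%). The falls were 0 in some alternatives, and the rises with PGE were 4 in all 22. Socs1, an inhibitor of cytokine signalling, rose by 0.93 ± 0.15 (SE; limma adjusted p = 0.00139) with LPS and by a further 1.19 ± 0.15 with PGE (4.31e-04), with log2 levels of 6.07, 6.11 and 6.18 against 7.44, 6.93, 7.22 and 7.63. The 4 PGE values lay above all LPS values. The transcription factor Cebpb rose by 1.51 and 0.64, and Fos by 2.60 and 0.76, and all of these passed. Bach1, a repressor of heme-response genes, changed by 0.07 with LPS (limma adjusted p = 0.544) and rose by 0.50 ± 0.06 with PGE (3.91e-04). Inpp5d, the lipid phosphatase SHIP, changed by -0.01 with LPS and by -0.06 with PGE (95% interval -0.18 to 0.05; limma adjusted p = 0.368).

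For miR-146a, 8 of 10 listed targets were measured: 3 rose and 2 fell with LPS (37.5% and 25%, against 6.55% and 6.69% of all genes), and 3 rose and 2 fell with PGE (37.5% and 25%, against 11.9% and 12.9%). The falls with PGE were 0 in some alternatives. Irak1 was not analysed here. Traf6, the adaptor ubiquitin ligase below Toll-like receptors, had log2 levels of 9.54, 9.53, 9.53 and 9.50 in untreated cells and 9.97, 9.95 and 9.91 with LPS, and rose by 0.42 ± 0.05 (SE; limma adjusted p = 2.25e-04). With PGE it changed by -0.18 ± 0.05 (limma adjusted p = 0.0367), a call kept in 9 of 22 alternatives. Irak2, a Toll-like receptor kinase, rose by 0.69 with LPS and changed by -0.01 with PGE. The chemokine receptor Cxcr4 fell by 0.51 with LPS and rose by 0.31 with PGE (limma adjusted p = 0.00413). Among the 8, the change with PGE of greatest size was 0.45 ± 0.10 (SE), at Card10 (limma adjusted p = 0.0114).

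For miR-221 and miR-222, 9 of 10 listed targets were measured: 1 rose and 3 fell with LPS (11.1% and 33.3%, against 6.55% and 6.69% of all genes). With PGE 2 rose and 1 fell (22.2% and 11.1%, against 11.9% and 12.9%). Cdkn1b, the cell cycle inhibitor p27, had log2 levels of 10.06, 9.97, 10.02 and 10.10 in untreated cells, 9.64, 9.48 and 9.83 with LPS, and 10.19, 10.18, 10.28 and 10.21 with LPS plus PGE. The LPS arrays were the lowest and the PGE arrays the highest, with no overlap. It fell by 0.39 ± 0.08 (SE; limma adjusted p = 0.00576) with LPS and rose by 0.57 ± 0.08 with PGE (7.17e-04). The death-promoting gene Bmf fell by 1.16 with LPS (limma adjusted p = 8.64e-05), and Bbc3, which encodes Puma, fell by 0.40 with LPS and by 0.46 with PGE (0.00314). Ddit4, an inhibitor of mTOR, had log2 levels of 5.96, 6.44 and 6.46 with LPS and 9.57, 9.09, 9.29 and 9.47 with PGE added, a rise of 3.07 ± 0.16 (limma adjusted p = 3.12e-07).

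**Figure D4:**
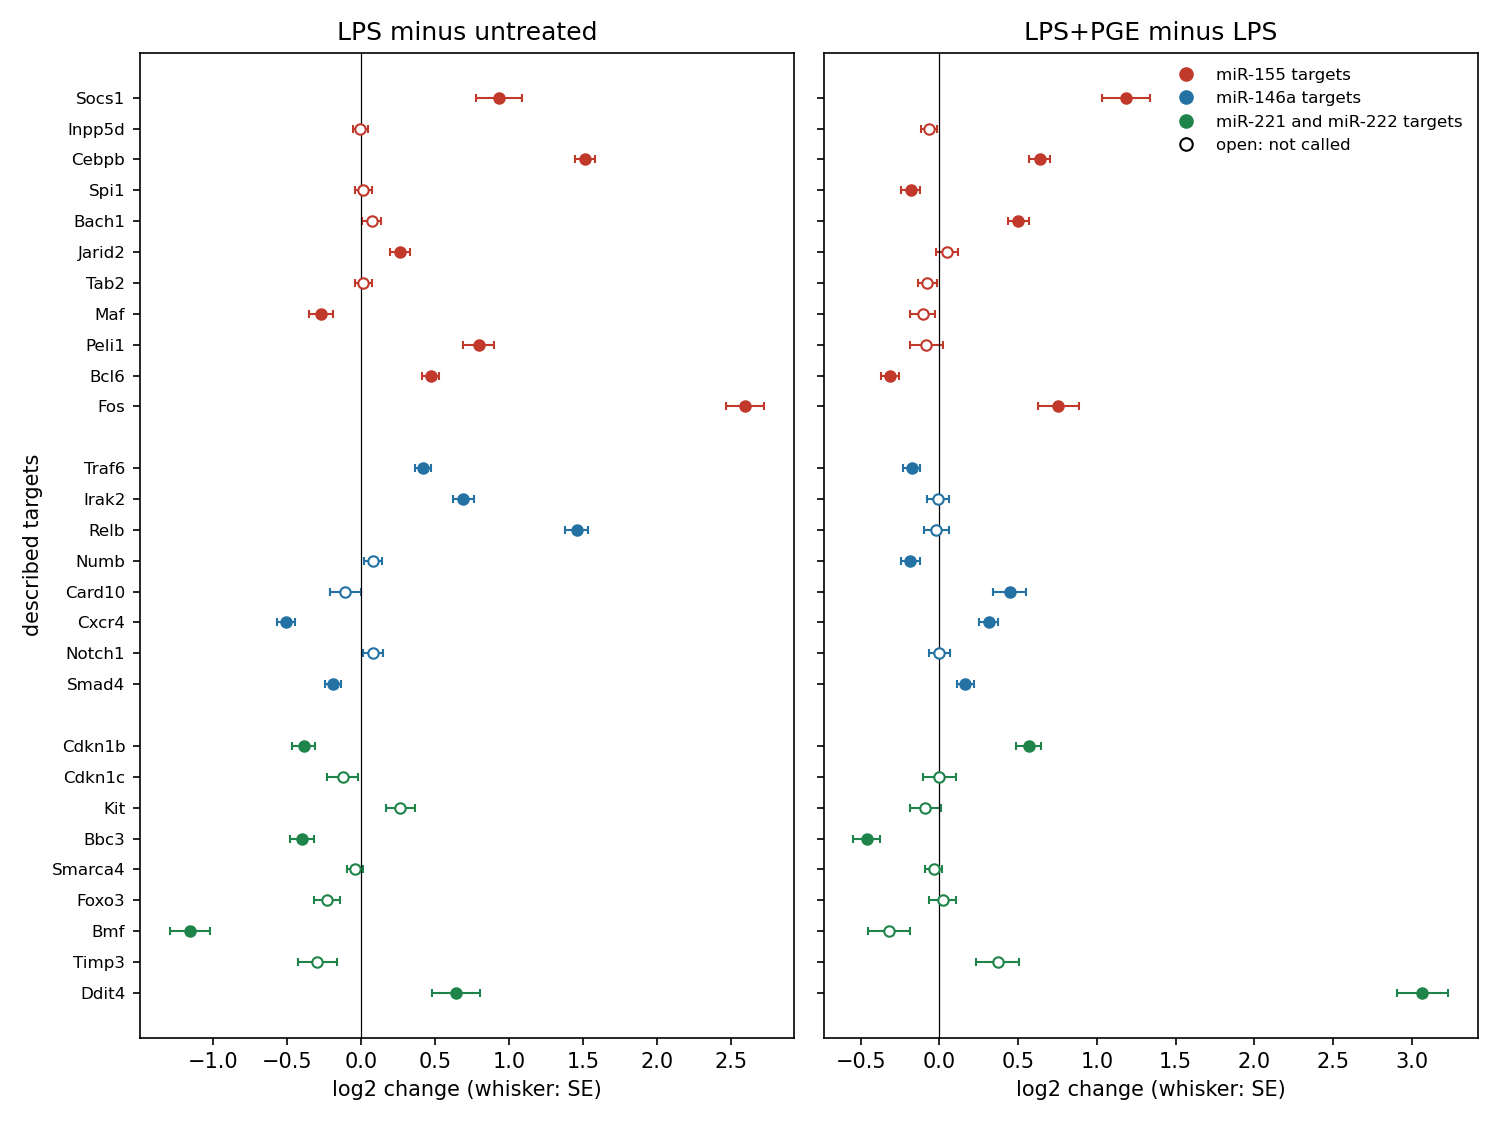
Log2 change (x axis; whisker, SE) of described targets of miR-155, miR-146a, and miR-221 and miR-222 (y axis) for LPS minus untreated (left) and LPS plus PGE minus LPS (right); filled points passed an adjusted p under 0.05. Points lie on both sides of 0 in every target group, and Ddit4 stands apart on the right at 3.07.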

How the data were processed

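The values are those the authors deposited, read here as log2 levels. The scale rests on their range and on RMA, which the submitters' processing notes list beside Partek, R 2.13.1 and Affymetrix Power Tools. RMA corrects background, normalizes arrays and summarises probes. A build for the arrays was not given in the sources, and positions are RefSeq's. Of 35309 probe sets, 21143 carried 1 symbol and 1870 several, which were left out with those that had none. The probe set of highest mean was taken per gene, which gave 18755 genes.

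In R 4.3.3, limma 3.58.1 fitted 1 mean per group over the 11 arrays (8 residual and 3.77 prior degrees of freedom), with two-sided contrasts, Benjamini-Hochberg adjustment over all genes and a threshold of 0.05. The pipeline was tested on simulated data for LPS plus PGE against LPS (18755 genes, 200 changed): 61% of changes of 0.5 and 95% of changes of 1 on the log2 scale were recovered, with 11 and 12 false calls. Plots were made in Python 3.11.15 by matplotlib 3.10.9.

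The 4 genes and the gene lists were chosen with earlier results of these data known. Named were the 4 genes; other microRNA genes with the largest changes (5 rises and 3 falls with LPS, 3 and 3 with PGE); the 3 genes most correlated with each; and called list members with the largest changes, plus Dicer1, Drosha, Ago2, Socs1, Inpp5d, Traf6, Irak1 and Cdkn1b. Mir146b and Mir125a, and the differences between genes, were chosen after their values were seen. Alternatives were other scalings (quantile, equal medians, cyclic loess), variance models, array weights, the compared groups alone, filters on low genes, all probe sets, the mean probe set, a 2-fold threshold, a replicate block and each array left out.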

Additional observations from a re-analysis of the deposited data

Results flagged for a closer look

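Mir191, the microRNA gene next to the 4 in its rise with LPS, had a log2 level of 6.14 on LPS plus PGE replicate 3, while the other 3 arrays of that group lay at 5.70 to 5.73. The gap was 0.922 of the group's range, past Dixon's 95% critical value for 4 arrays. Chance flags about 1 in 20 groups, and 1 of 40 groups of 4 arrays was flagged.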

How the results depend on the processing

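The 22 alternatives left the call of Mir155 and Mir222 for LPS plus PGE against LPS as it was (-0.21 to -0.03 and -0.43 to -0.09), and that of Mir146 in all 20 that held it, since both filters on low genes drop it. Mir221 lost its call under quantile scaling (-0.27), equal medians (-0.18), cyclic loess (-0.18), array weights (-0.31), the compared groups alone (-0.34) and all probe sets (-0.34), and without LPS replicate 2 or 3 or LPS plus PGE replicate 1, 3 or 4; leaving out 1 array gave -0.47 to -0.23. Against untreated cells, LPS plus PGE gave 0.47 (equal medians) and 0.21 (cyclic loess) for Mir146 and 3.42 (cyclic loess) for Mir221. Equal medians move the median of all genes for LPS plus PGE against LPS to 0.15 and the split of called genes from 2225 rises and 2416 falls to 5850 and 718. The 4641 genes called there became 1899 (quantile), 2173 (cyclic loess), 134 (2-fold threshold) and 2945 to 4455 without 1 array, the fewest without LPS replicate 3. The 5946 called for LPS plus PGE against untreated became 3897 (cyclic loess). Of microRNA genes, the 25 falls with LPS became 16 (array weights), 16 (compared groups alone), 14 (no lowest tertile), 5 (genes above the median level) and 15 to 24 without 1 array, fewest without untreated replicate 3; the 18 rises became 7 above the median level. The 51 rises with PGE became 21 (quantile), 105 (equal medians), 20 (cyclic loess), 17 (no lowest tertile), 4 (genes above the median level), 33 (all probe sets) and 31 to 53 without 1 array, fewest without LPS replicate 3 or LPS plus PGE replicate 1; the 14 falls became 8 (equal medians), 8 (above the median level) and 9 to 19 without 1 array, fewest without LPS replicate 3. The cause was not tested. The 1-array alternatives and the filters test fewer arrays or genes. None of the 4 genes changed the sign of its change, but balances did: above the median level 4 microRNA genes rose and 8 fell with PGE, without untreated replicate 3 there were 17 rises and 15 falls with LPS, and the median PGE change of the other microRNA genes went from 0.09 to -0.0089 (quantile) and -0.03 (cyclic loess).

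Whether replicate numbers pair the arrays was not settled. Deviations of same-numbered arrays correlated at -0.02 to 0.21 (median 0.13) and those of other numbers at -0.14 to 0.09 (median -0.04). The same-numbered arrays thus had the higher median, with overlapping ranges, and the main fit held no replicate block. With replicate number as a block, the PGE change was -2.19 for Mir146, -0.05 for Mir155, -0.30 for Mir221 and -0.24 for Mir222, with 4698 genes called, and no call of the 4 genes changed. Levels near the low end of the array limit what can be read of Mir146, since signal over background was not measured.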
